A study of Rattus norvegicus with 48 samples.

Results

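miR-145 (rno-miR-145 in the deposited table) is 1 of the 143 rat liver miRNAs in the table deposited by this study, and its single row was followed across all 48 animals and all 16 groups. Male Sprague-Dawley rats, at least 8 wk old when feeding began, received a Lieber-DeCarli liquid diet with 36% of calories as ethanol (EtOH) or a pair-fed carbohydrate control diet (CHO) for 6 to 8 wk. Liver was taken before (0 h) or after 70% partial hepatectomy (PHx), which removes most of the organ and sets the remainder to regenerate. Untreated animals of both diets were studied at 0, 6, 24, and 72 h (8 groups). Animals of both diets given saline, or given AM21, an antisense locked nucleic acid oligonucleotide against miR-21 (7.5 mg/kg, injected 72 h before surgery and again right after it), were studied at 0 and 24 h (8 groups). On this schedule livers taken at 0 h followed only the first injection, and those at 24 h followed both. Each group held 3 animals, and RNA came from whole liver.

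MicroRNAs are short RNAs that guide a silencing complex to messenger RNAs, mainly through their seed, the stretch near the 5' end that pairs with the target. miR-145 is transcribed together with miR-143 from one primary transcript and is best known in vascular smooth muscle, where it favours the contractile state. It is also found in pericytes, fibroblasts, and hepatic stellate cells, the pericytes of the liver sinusoid, and is low in most epithelial cells. In whole liver a lower value can reflect fewer cells of a type or less RNA per cell, and these cannot be told apart.

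The deposited row is named miR-145 without an arm, so both mature arms are shown, beside those of its cluster partner miR-143, because the comparison of the pair is given further on. The capitals mark the seed, bases 2 to 8.
rno-miR-145-5p: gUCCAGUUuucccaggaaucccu
rno-miR-145-3p: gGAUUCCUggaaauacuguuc
rno-miR-143-3p: uGAGAUGAagcacuguagcuca
rno-miR-143-5p: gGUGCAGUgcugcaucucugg
The sequences are RefSeq's for GRCr8. Under older naming the name without an arm stood for miR-145-5p and for miR-143-3p, but which arm the probe read is not given in the sources used here. Of the 693 mature rat miRNAs in that table, 0 others share the seed of any of these 4. The miR-145 hairpin of 88 bases lies at chr18:57369983-57370070 on the minus strand, and the miR-143 hairpin lies at chr18:57371349-57371453 on the same strand, with 1278 bases between them. Both fall inside the span of the long noncoding RNA gene Carmn, at chr18:57368191-57389112.

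miR-145 was well measured in every liver. The NanoString nCounter assay counts each miRNA by a coloured probe without amplification, and counts recovered from the deposited values ran from 788 to 4310 for miR-145, with a median of 2087.5. This was 0.609% to 2.56% of an animal's counts over the 143 miRNAs of the table, and counting error was at most 0.051 on the log2 scale. Depth, the total over the same 143 miRNAs, ranged from 58168 to 267582 counts an animal (median 160078). The hepatocyte miRNA miR-122 took 42.1% to 68.8% of these counts. All values below are log2 CPM (counts scaled to a common library size, on the log2 scale) as deposited.

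Before PHx, untreated CHO-fed animals had miR-145 levels of 13.99, 14.07, and 13.95 log2 CPM, and untreated EtOH-fed animals had 13.79, 14.01, and 13.54. The EtOH-fed animals spread more widely, and 1 of them lay within the range of the CHO-fed animals. At 6 h the levels were 14.40, 14.18, and 14.70 on the CHO diet and 14.60, 14.25, and 14.42 on the EtOH diet. All 6 animals at 6 h were above all 6 untreated animals at 0 h, and the diets overlapped.
At 24 h untreated animals had 13.62, 13.09, and 13.74 on the CHO diet and 13.38, 13.67, and 13.30 on the EtOH diet. All but the CHO-fed animals at 13.62 and 13.74 and the EtOH-fed animal at 13.67 lay below every untreated animal at 0 h. At 72 h the levels were 13.21, 13.82, and 13.28 on the CHO diet and 12.81, 12.97, and 12.88 on the EtOH diet. These 3 EtOH-fed livers were the lowest of all 48 animals.

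Across the 16 groups, mean miR-145 spanned 1.53 on the log2 scale. The order ran from CHO 6 h (14.42 ± 0.26 log2 CPM, SD, n = 3 here and in all groups) and EtOH 6 h (14.42 ± 0.17) through the untreated CHO 0 h group (14.00 ± 0.06) and CHO 0 h saline group (13.92 ± 0.18) to EtOH 0 h saline (13.79 ± 0.06) and EtOH 0 h untreated (13.78 ± 0.23). A dense middle followed, holding CHO 0 h AM21 (13.68 ± 0.29), EtOH 24 h AM21 (13.66 ± 0.04), CHO 24 h saline (13.66 ± 0.08), and EtOH 0 h AM21 (13.65 ± 0.10). Below them came CHO 24 h untreated (13.48 ± 0.34), EtOH 24 h saline (13.48 ± 0.18), CHO 24 h AM21 (13.45 ± 0.32), EtOH 24 h untreated (13.45 ± 0.19), and CHO 72 h (13.44 ± 0.33), and EtOH 72 h stood last (12.89 ± 0.08). Of the 15 pairs of neighbours in this order, 13 had overlapping animals. The exceptions were EtOH 6 h above CHO 0 h untreated, and CHO 72 h above EtOH 72 h.

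**Figure D1:**
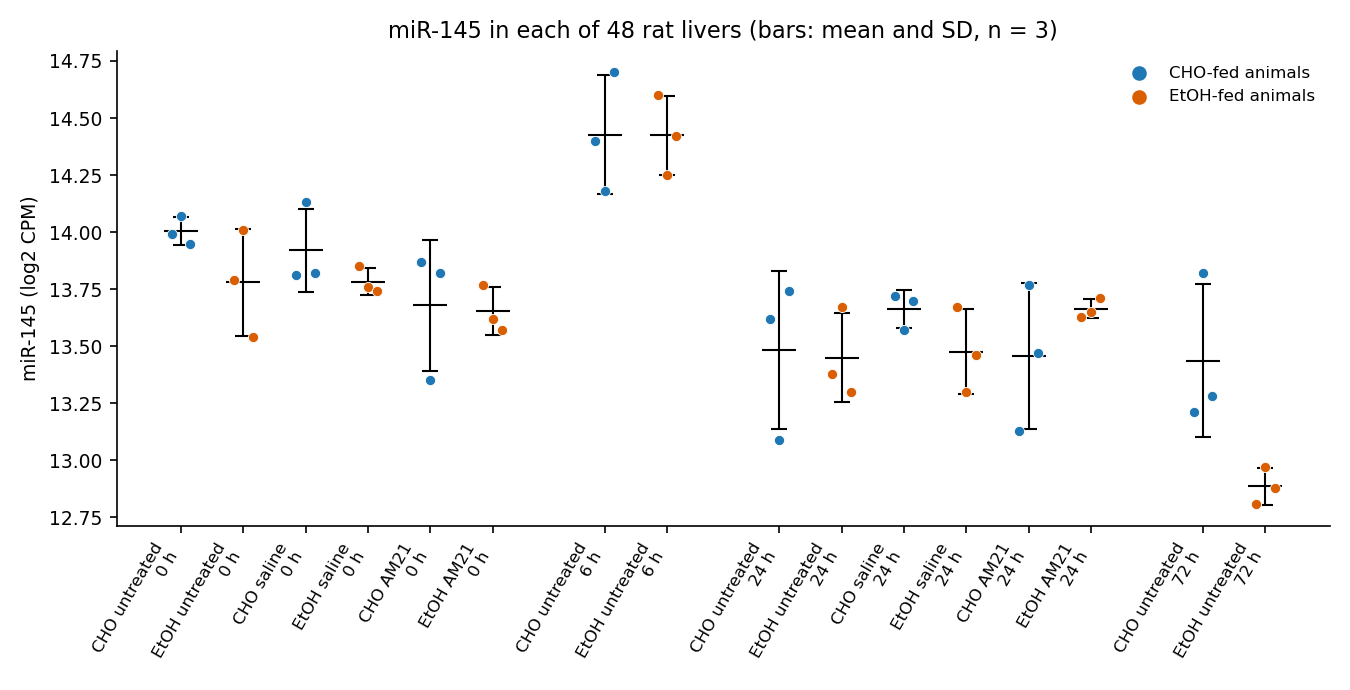
Level of miR-145 in log2 CPM (vertical axis, not starting at 0) in each of the 48 livers, by time, treatment, and diet; points are animals, and black bars give the mean and SD of 3 animals. The 6 animals at 6 h sit between 14.18 and 14.70, and the EtOH-fed animals at 72 h sit between 12.81 and 12.97.

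The clearest difference in miR-145 was between 72 h and 6 h after PHx. miR-145 fell by 0.99 on the log2 scale (SE 0.20, 95% interval -1.40 to -0.58, adjusted p = 0.00171) in CHO-fed animals, a 1.98-fold lower level. In EtOH-fed animals it fell by 1.53 (SE 0.20, interval -1.94 to -1.13, adjusted p = 1.09e-05), which was 2.90-fold lower. In both diets all 3 animals at 72 h were below all 3 at 6 h. By p-value miR-145 ranked 3rd of 143 miRNAs on the CHO diet, where this comparison called 30.8% of all miRNAs, and 1st on the EtOH diet, where it called 37.1%. These are limma tests on the 24 untreated animals with p-values adjusted over 143 miRNAs and called under 0.05, as in all comparisons that follow unless another test is named.

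Against 0 h, miR-145 rose at 6 h in EtOH-fed animals by 0.64 (SE 0.20, adjusted p = 0.0369), a 1.56-fold higher level, in a comparison with 11.2% of miRNAs called. In CHO-fed animals the difference at 6 h was 0.42 (SE 0.20, adjusted p = 0.172), and 2.10% of miRNAs were called. At 72 h miR-145 fell by 0.89 on the EtOH diet (SE 0.20, adjusted p = 0.00275). On the CHO diet it fell by 0.57 (SE 0.20, adjusted p = 0.0461). In each diet 18.2% of miRNAs were called at 72 h. The CHO call at 72 h and the EtOH call at 6 h each sat near the threshold and were lost when any of 5 of the 6 animals was left out. Over all alternatives the adjusted p ran from 0.0162 to 0.183 for CHO at 72 h and from 0.0146 to 0.268 for EtOH at 6 h.
The labels number the animals at 0 and 24 h in sets 1 to 3 and those at 6 and 72 h in set 4, so a difference of 6 or 72 h from 0 h cannot be told apart from a difference between sets. The 72 h against 6 h comparison and the diet comparisons lie within the same sets.

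At 24 h the untreated groups alone gave differences from 0 h of -0.52 on the CHO diet (SE 0.20, adjusted p = 0.0926) and -0.33 on the EtOH diet (SE 0.20, adjusted p = 0.364), with 1.40% of miRNAs called in each. Animals of the same set deviated together in the CHO comparison, and with the set as a block it gave adjusted p = 0.0779 for miR-145 and 19 calls in place of 2. Without the CHO-fed animal at 13.09 the difference was -0.33 (adjusted p = 0.325), and without the EtOH-fed animal at 14.01 before PHx the EtOH difference was -0.22 (adjusted p = 0.54). With the saline animals added, there were 6 control animals for each diet and time. CHO-fed controls ranged from 13.81 to 14.13 log2 CPM with a median of 13.97 at 0 h, and from 13.09 to 13.74 with a median of 13.66 at 24 h. The ranges did not overlap, and miR-145 fell by 0.39 (SE 0.13, adjusted p = 0.0244), in a comparison with 25.2% of miRNAs called. EtOH-fed controls ranged from 13.54 to 14.01 with a median of 13.78 at 0 h, and from 13.30 to 13.67 with a median of 13.42 at 24 h. These ranges overlapped, and the difference was -0.32 (SE 0.13, adjusted p = 0.0952), with 11.2% of miRNAs called. The CHO call was lost without the untreated animal at 13.09 (adjusted p = 0.092), and also without the saline animal of set 2 at 0 h or at 24 h (0.0668 and 0.0544), within a range of 0.0158 to 0.092 over the alternatives.

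A test over all 3 later times against 0 h called miR-145 in both diets (moderated F = 11.3, adjusted p = 0.00196 in CHO; F = 21.1, adjusted p = 0.000132 in EtOH). This test called 32.9% of miRNAs on the CHO diet and 39.9% on the EtOH diet, and on the latter miR-145 had the smallest p of all 143.

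The diet comparison at matched times gave no call for miR-145. EtOH minus CHO in untreated animals was -0.22 before PHx (SE 0.20, adjusted p = 0.557). The difference was 0.00 at 6 h (interval -0.41 to 0.41, adjusted p = 0.997) and -0.03 at 24 h (interval -0.44 to 0.38, adjusted p = 0.985). At 72 h all 3 EtOH-fed animals lay below all 3 CHO-fed animals, by 0.55 on average (interval -0.96 to -0.14), but this did not pass adjustment by limma (adjusted p = 0.274). Without the CHO-fed animal at 13.82 the difference was -0.36 (adjusted p = 0.743, within 0.165 to 0.812 over the alternatives).
By limma, 2.10% of miRNAs were called before PHx and again at 24 h (with the set as a block, 8 in place of 3 miRNAs before PHx). At 6 and 72 h 0% were called, with 13 and 14 miRNAs at an unadjusted p under 0.05, miR-145 being among those at 72 h. The test of whether the time course of miR-145 differed between diets gave F = 1.62 (adjusted p = 1), with 0% of miRNAs called and 8 at an unadjusted p under 0.05. The larger fall on the EtOH diet was therefore not shown to differ from that on the CHO diet. Over untreated, saline, and AM21 animals together, EtOH minus CHO was -0.13 at 0 h (SE 0.10, adjusted p = 0.384) and 0.00 at 24 h (interval -0.21 to 0.21, adjusted p = 0.986), in comparisons with 14.7% and 1.40% of miRNAs called (at 24 h, 4 in place of 2 miRNAs with the set as a block).

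**Figure D2:**
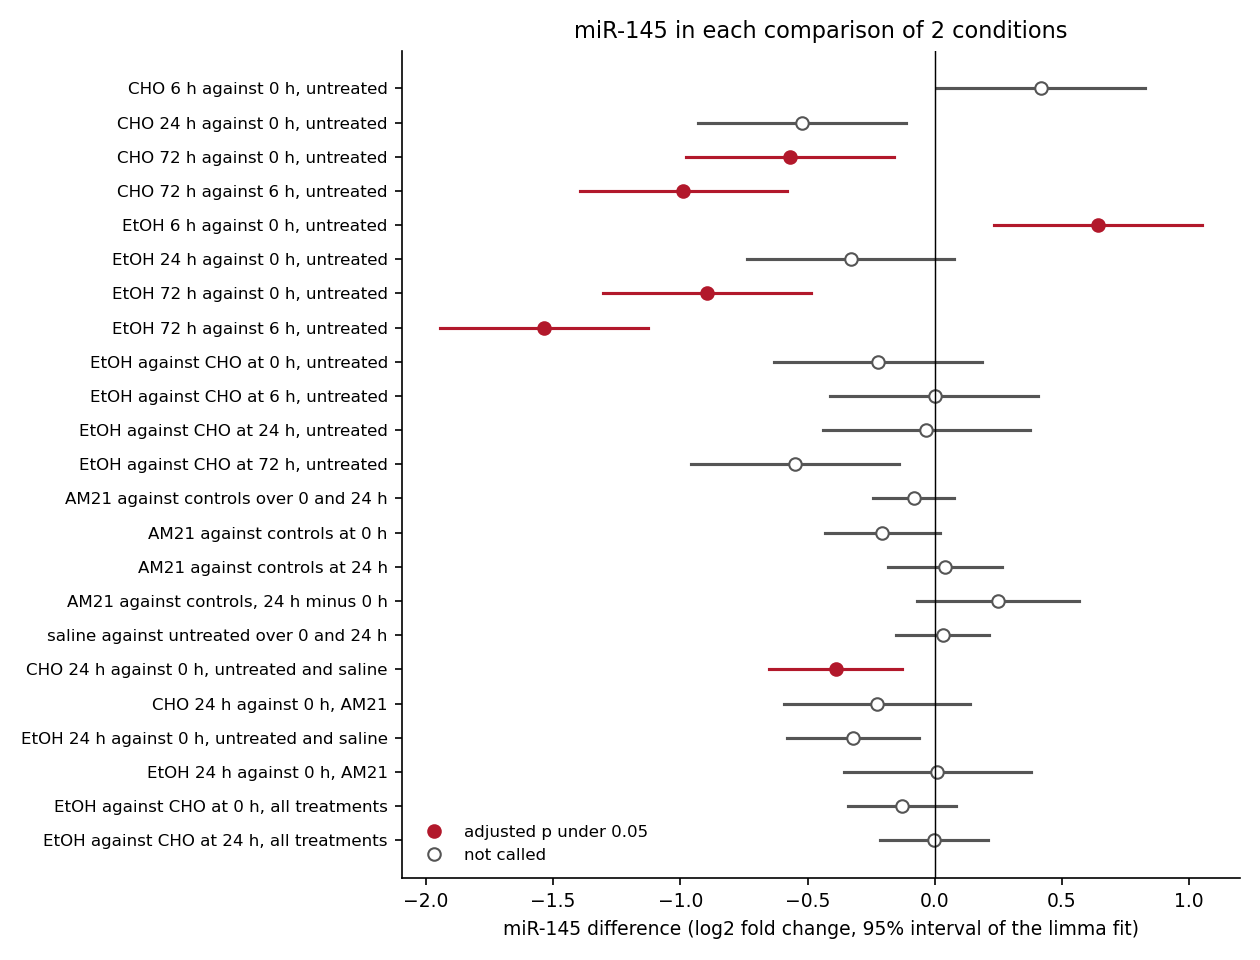
Difference in miR-145 (log2 fold change, horizontal axis) for each comparison of conditions, with the 95% interval from limma; filled red points have an adjusted p under 0.05. The largest differences are the falls from 6 h to 72 h, -0.99 on the CHO diet and -1.53 on the EtOH diet.

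Animals given AM21 had miR-145 values close to those of controls. At 0 h the AM21 animals had 13.87, 13.35, and 13.82 log2 CPM on the CHO diet and 13.77, 13.62, and 13.57 on the EtOH diet, and the saline animals had 13.81, 14.13, and 13.82 on CHO and 13.85, 13.76, and 13.74 on EtOH. The 12 controls ranged from 13.54 to 14.13, with a median of 13.84, so that all but the AM21 animal at 13.35 lay within that range. The difference was -0.21 at 0 h (SE 0.11, interval -0.43 to 0.02, adjusted p = 0.506), with 4.20% of miRNAs called.
At 24 h the AM21 animals had 13.13, 13.77, and 13.47 on CHO and 13.63, 13.65, and 13.71 on EtOH, beside 13.72, 13.57, and 13.70 in CHO and 13.67, 13.30, and 13.46 in EtOH saline animals. AM21 animals and controls overlapped. The difference was 0.04 at 24 h (interval -0.18 to 0.27, adjusted p = 0.853), with 2.80% of miRNAs called. Over both times it was -0.08 (interval -0.24 to 0.08, adjusted p = 0.531), with 5.59% called.

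The fall at 24 h was not seen as a called change under AM21. It was -0.23 in CHO-fed AM21 animals (SE 0.18, adjusted p = 0.437; -0.39 to -0.06 without single animals, and -0.09 with scaling to the total count without miR-122) and 0.01 in EtOH-fed AM21 animals (SE 0.18, adjusted p = 0.974), in comparisons with 9.09% and 0% of miRNAs called (20 at an unadjusted p under 0.05 in the latter). The AM21 effect at 24 h minus that at 0 h was 0.25 (SE 0.16, interval -0.07 to 0.56, adjusted p = 0.998), with 0% called and 4 at an unadjusted p under 0.05, so the response at 24 h was not shown to differ with AM21. The number of injections also differs between these times. Saline and untreated animals differed by 0.03 (interval -0.15 to 0.21, adjusted p = 0.971), with 1.40% of miRNAs called.

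miR-143, made from the same primary transcript, was not seen to follow miR-145. It was called in neither diet at 6 or 72 h. Its differences at 72 h against 6 h were 0.22 on the CHO diet (SE 0.23, adjusted p = 0.535) and -0.14 on the EtOH diet (SE 0.23, adjusted p = 0.706). It was counted only 14 to 85 times per animal, with counting error of up to 0.386 on the log2 scale, and so was measured less precisely than miR-145. The change of miR-145 was therefore also taken relative to that of miR-143 within each animal, a difference that scaling between animals cannot alter, with an exact two-sided permutation of times within diets. This test was chosen after the values had been seen, and it compares changes, not the levels of the 2 miRNAs. Counts of miR-143 were in the range of the striated muscle miRNA miR-206 (25 to 70 per animal). If they were largely probe background, a change of miR-143 would be flattened and the difference would mostly restate miR-145. Background was not tested, so a divergence of the 2 miRNAs is not established.

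From 6 to 72 h miR-145 minus miR-143 changed by -1.31 (6 against 6 animals, exact permutation p = 0.005, the smallest that 400 arrangements can give, adjusted p = 0.01 over 4 comparisons). The difference lay between 6.03 and 6.48 on the log2 scale in the animals at 6 h and between 4.64 and 5.40 in those at 72 h, so the times did not overlap. From 0 to 6 h it changed by 0.73 (exact permutation p = 0.025, adjusted p = 0.0333) and from 0 to 72 h by -0.58 (exact permutation p = 0.045, adjusted p = 0.045). In untreated and saline animals from 0 to 24 h it changed by -0.48 (12 against 12 animals, exact permutation p = 0.00134, adjusted p = 0.00535). Alone, miR-145 gave exact permutation p values of 0.005, 0.005, 0.005, and 0.0001 in the same order. For miR-143 alone the exact permutation p values were 0.76, 0.3, 0.425, and 0.259. In no comparison did the difference give a smaller p than miR-145 alone. Leaving out single animals kept the calls at 6 to 72 h, 0 to 6 h, and 0 to 24 h, whereas the call from 0 to 72 h was lost for 7 of 12 animals (adjusted p up to 0.12).

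**Figure D3:**
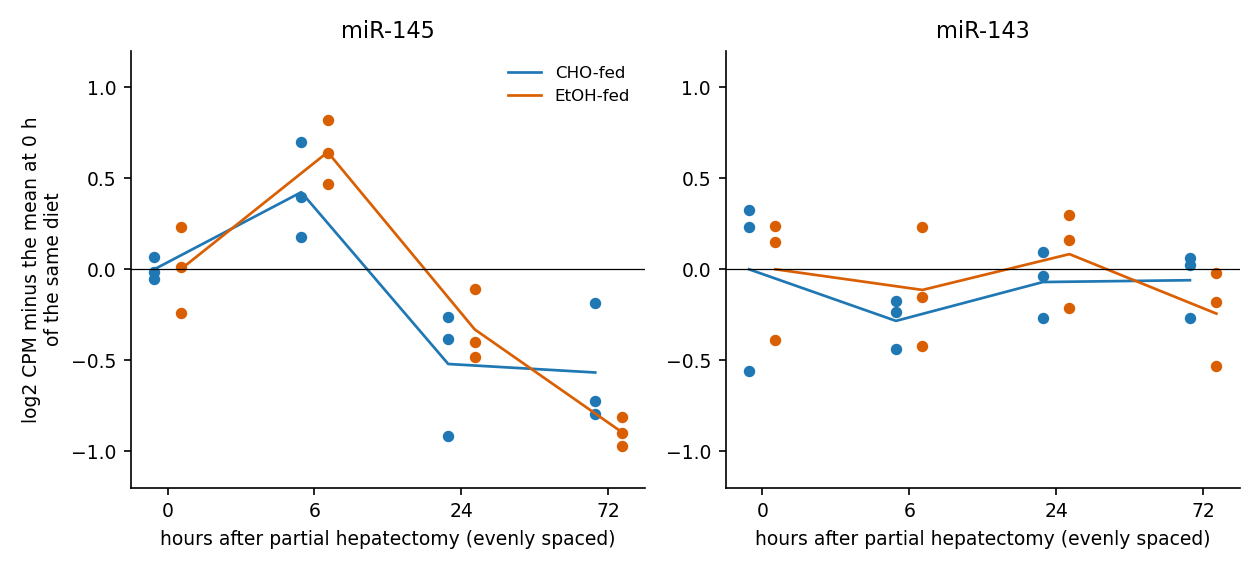
Change in miR-145 (left) and miR-143 (right) in untreated animals, as log2 CPM minus the mean of the same diet at 0 h (vertical axis), at 0, 6, 24, and 72 h (evenly spaced on the horizontal axis); points are animals and lines join the means of 3. Mean miR-145 was 0.42 and 0.64 above its 0 h level at 6 h and 0.57 and 0.89 below it at 72 h (CHO first, then EtOH), whereas no time difference of miR-143 was called.

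Other miRNAs of mesenchymal cells were compared with miR-145. Of a list of 6 such miRNAs, 4 were in the table (miR-145, miR-143, miR-199a-5p, and miR-199a-3p), and in comparisons of 6, 24, or 72 h among untreated animals miR-145 was the only one called. Without miR-145, the median of the other 3 was 0.30 at 72 h against 6 h on the CHO diet and 0.37 on the EtOH diet, beside -0.01 and 0.05 over all miRNAs. miR-199a-5p and miR-199a-3p, which are processed from one hairpin and abundant in stellate cells, had 72 h against 6 h differences of 0.30 and 0.49 on the CHO diet and 0.42 and 0.37 on the EtOH diet, none of them called. In EtOH-fed controls at 24 h against 0 h, miR-199a-3p was called lower (-0.43, adjusted p = 0.0311), in the same direction as the uncalled miR-145 difference of -0.32. Both were called lower with AM21 at 0 h, miR-199a-5p by -0.57 (adjusted p = 0.000479) and miR-199a-3p by -0.42 (adjusted p = 0.0369). At 24 h miR-199a-5p was again called lower with AM21 (-0.44, adjusted p = 0.0127), and miR-199a-3p was not (-0.19, adjusted p = 0.657). miR-145 was called at neither time. The 2 kinds of control differed for miR-199a-5p, which was called higher in saline than in untreated animals (0.34, adjusted p = 0.0407).

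The study used a list of 16 miRNAs raised in activated stellate cells, and it includes miR-145. Of the 14 in the table, 3 were called lower and 2 higher at 72 h against 6 h in each diet, a share near the 30.8% and 37.1% called among all miRNAs. miR-145, miR-125b-5p, and let-7e were the lower ones, and miR-21 and miR-152 the higher ones. At 72 h against 0 h, miR-145 and miR-22 were called lower in both diets, while miR-21 was called higher on the CHO diet and miR-132 on the EtOH diet, so that 3 of 14 were called in each, again near the 18.2% of all miRNAs. At 6 h against 0 h in EtOH-fed animals, 2 of 14 were called (miR-145 and miR-31, both higher), near the 11.2% of all miRNAs. In CHO-fed controls at 24 h, 2 of 14 were called higher (miR-132 and miR-21) and 1 lower (miR-145), where 25.2% of all miRNAs were called. The list median at 72 h against 6 h was -0.16 on the CHO diet and -0.29 on the EtOH diet, beside -0.01 and 0.05 over all miRNAs.

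miRNAs of other cell types moved as follows beside miR-145, and their part in its change was not tested. Some markers had low counts, such as miR-206 (25 to 70 per animal) and miR-223 (18 to 97), and probe background was not separated from them. The endothelial miR-126 (1 of 2 listed) went the other way from miR-145 in EtOH-fed animals, with a called difference of -1.01 at 6 h against 0 h (adjusted p = 0.0358) and 1.05 at 72 h against 6 h (adjusted p = 0.00754). Its level was 14.36 to 15.50 log2 CPM at 0 h, 13.68 to 14.28 at 6 h, and 14.94 to 15.17 at 72 h in those animals. The hepatocyte miRNAs (3 of 3, miR-122, miR-192, and miR-194) summed to 18.98 to 19.57 log2 CPM at 6 h and 19.22 to 19.58 at 72 h on the EtOH diet, and to 19.05 to 19.24 and 19.14 to 19.39 on the CHO diet. Of them, miR-192 was called higher at 72 h against 6 h in both diets (0.89 in CHO, 0.85 in EtOH) and lower at 6 h against 0 h on the EtOH diet (-0.82, adjusted p = 0.0358), where miR-145 was called higher. In CHO-fed controls at 24 h, where miR-145 was called lower, miR-122 was called higher (0.55, adjusted p = 0.00993).

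The red blood cell miRNAs miR-451 and miR-144 (2 of 2) also had called differences from 6 to 72 h on the CHO diet, of -1.76 and -1.45, and their summed level went from 10.52 to 11.14 log2 CPM at 6 h down to 9.10 to 9.37 at 72 h. On the EtOH diet they had differences of -0.25 and 0.30 from 6 to 72 h, not called, and summed levels of 9.93 to 10.53 and 9.46 to 10.89. At 72 h against 0 h, where miR-145 was called lower in both diets, miR-451 and miR-144 were both called lower on the CHO diet (-1.72 and -1.47), and on the EtOH diet miR-451 was called lower (-0.90, adjusted p = 0.0453) while miR-144 had -0.86 and was not called. Their summed level at 0 h was 10.35 to 11.25 on the CHO diet and 10.90 to 11.89 on the EtOH diet. Of the leukocyte miRNAs (3 of 4), miR-150 was called lower and miR-142-3p higher at 72 h against 6 h in both diets, and miR-223 was not called. miR-150 was also called lower beside miR-145 in CHO-fed controls at 24 h (-0.52, adjusted p = 0.0142) and at 72 h against 0 h on the EtOH diet (-0.78, adjusted p = 0.0174). The summed leukocyte level was 11.31 to 11.88 at 6 h and 11.34 to 11.65 at 72 h on the CHO diet, and 11.28 to 11.53 and 11.35 to 11.49 on the EtOH diet. The striated muscle miRNAs miR-1 and miR-206 (2 of 4) were not called in these comparisons, and their sums were 9.84 to 10.21 at 6 h and 9.56 to 9.82 at 72 h on the CHO diet, and 9.68 to 10.10 and 9.57 to 9.66 on the EtOH diet.

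The miRNAs whose group means most resembled those of miR-145 were not its cluster partner. Across the 16 group means, the highest Pearson's r among the other miRNAs of the table were those of miR-181a (0.92), miR-150 (0.89), miR-125a-5p (0.85), miR-139-5p (0.83), and miR-125b-5p (0.81). Next came miR-326 (0.76), miR-208b-3p (0.76), miR-3594-5p (0.73), and miR-3594-3p (0.72). Their counts per animal were low, 21 to 59, 24 to 77, 21 to 56, and 24 to 77, and probe background was not separated from them. miR-181a and miR-150 are abundant in lymphocytes, and miR-125a-5p and miR-125b-5p are relatives that share a seed. Besides miR-150, the leukocyte miRNAs given above had negative r, -0.71 for miR-142-3p and -0.58 for miR-223. The study's list of miRNAs enriched in liver sinusoidal endothelial cells holds miR-181a, miR-150, miR-125a-5p, and miR-139-5p, and also miR-145 itself. Other members of it went the other way, such as miR-374 (r of -0.83), miR-335 (-0.79), miR-16 (-0.78), and miR-322 (-0.73). The study's list of miRNAs lowered in activated stellate cells holds miR-181a, miR-150, and miR-125a-5p. It also holds miR-335, miR-16, miR-192 (-0.74), let-7f (-0.68), and miR-126 (-0.60), all with negative r. Membership of the most alike miRNAs in these lists was not compared with the share of list members among all miRNAs. The cells from which these miRNAs came were not tested. The group means that chose the 5 miRNAs most like miR-145 include 6 and 72 h. The differences of those 5 between these times therefore follow from the choice and are given as a description. At 72 h against 6 h these were -1.18 and -1.33 for miR-181a, -0.98 and -1.01 for miR-150, -0.76 and -0.82 for miR-125a-5p, -0.90 and -0.93 for miR-139-5p, and -0.91 and -1.08 for miR-125b-5p, with the CHO diet given first. miR-143 had an r of -0.14 and ranked 80th.

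After group means were removed, the animals within groups gave another order. Over the 48 animals the highest r with miR-145 belonged to miR-125b-5p (0.62), miR-365 (0.55), miR-125a-5p (0.52), miR-150 (0.51), and miR-24 (0.51). miR-125b-5p, miR-125a-5p, and miR-150 were among the 5 highest by both measures, whereas miR-139-5p had an r of -0.22 within groups. Over the group means at 0 and 24 h alone, r was 0.15 for miR-125b-5p, 0.81 for miR-125a-5p, and 0.84 for miR-150. These correlations are descriptions, since the points share libraries, scaling, and depth. The r of miR-145 with log10 total count was -0.77 over the 16 group means and 0.18 within groups, and totals were 87009 to 196972 at 6 h and 163533 to 267582 at 72 h. When log10 total count was added to the model, the miR-145 difference at 72 h against 6 h was -1.03 on the CHO diet (adjusted p = 0.00917) and -1.57 on the EtOH diet (adjusted p = 5.74e-05). Over all alternatives the adjusted p of these comparisons ran from 0.000139 to 0.0111 and from 3.23e-08 to 0.000178.

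**Figure D4:**
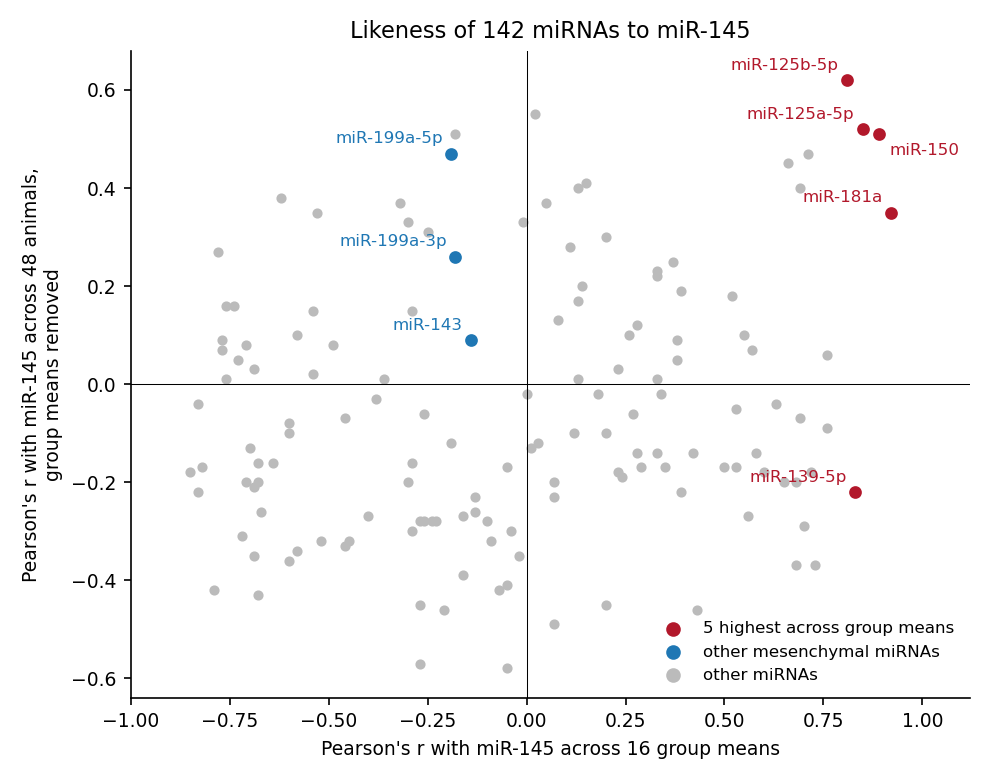
Pearson's r of every other miRNA of the table with miR-145 across the 16 group means (horizontal axis) and across 48 animals after group means were removed (vertical axis); each point is a miRNA. miR-181a (0.92 across groups) lies farthest to the right, miR-125b-5p (0.62 within groups) lies highest, and miR-143 lies near 0 on both axes.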

How the data were processed

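Total RNA from frozen liver of 48 rats (16 groups of 3) was profiled with the NanoString nCounter assay. The authors deposited log2 CPM for 143 miRNAs, made with TMM scaling and voom (limma per the labels); the filter that kept these miRNAs is not given in the sources used here. Counts were recovered from the log2 values and the voom prior of 0.5, each within 0.001 of a whole number, and were used for depth and rescaling. Linear models with a mean for each group were fitted to the deposited values (lmFit and eBayes, limma 3.58.1, R 4.3.3) on the 24 untreated animals (8 groups) or the 36 animals at 0 and 24 h (12 groups). P-values were adjusted by Benjamini-Hochberg over 143 miRNAs within each comparison, called under 0.05, and measure the spread between animals. The miRNA, its lists, and the rule for named miRNAs were chosen with earlier results of these data known. Named miRNAs were miR-145, markers present among the 143 miRNAs, the 5 most alike by each measure, and called members of the stellate cell list. The miRNAs next most alike, and members of the study's lists with negative correlations, were named after the correlations were seen. The fit was tested on simulated data. Numbered sets paired the samples (all 3 correlations of deviations over 0.1) for CHO 24 h against 0 h untreated (0.12, 0.30, and 0.28), EtOH against CHO at 0 h untreated, EtOH 24 h against 0 h controls, and EtOH against CHO at 24 h over all treatments. Alternatives were other scalings, a filter of 50 counts in 3 animals, voom weights, the replicate block, other sets of groups, log10 total count, and leaving out each animal. Exact permutations used NumPy 2.4.6 in Python 3.11.15.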

Additional observations from a re-analysis of the deposited data

How the results depend on the processing

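Of 8 calls for miR-145 by limma, 5 were kept under every alternative run: both falls from 6 to 72 h, both tests over all later times, and the EtOH fall from 0 to 72 h. The other 3 were lost in part, without a change of direction. CHO 72 h against 0 h lost its call with RLE size factors (-0.58), in a fit of only the groups compared (-0.57), and with log10 total count (-0.62). EtOH 6 h against 0 h lost it with RLE size factors (0.62) and with only the groups compared (0.64), and CHO 24 h against 0 h in controls with only the groups compared (-0.39). Fewer animals estimate the spread where only the groups compared are fitted, and the cause of the other losses was not tested. Without single animals these values ran from -0.76 to -0.459, 0.522 to 0.753, and -0.454 to -0.292, and miR-145 minus miR-143 at 72 h against 0 h ran from -0.674 to -0.423. With the replicate block, the CHO 24 h difference in controls was -0.39 (adjusted p = 0.0269), and the block changed no call of miR-145.

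Differences near 0 changed sign. EtOH against CHO at 6 h was 0.024 with RLE size factors and 0.021 with the 100 highest probes, and -0.124 to 0.135 without single animals. EtOH 24 h against 0 h under AM21 was -0.006 with the 100 highest probes and -0.029 to 0.068 without single animals. Leaving out animals gave -0.228 to 0.096 for EtOH against CHO at 24 h in untreated animals, -0.068 to 0.049 over all treatments, -0.038 to 0.123 for AM21 at 24 h, and -0.017 to 0.064 for saline. Scaling moved the median of all miRNAs by up to -0.147 (EtOH 72 h against 6 h, 100 highest probes) and shifted miR-145 by the same amount, as a rescaling does for every miRNA. Counting error limited miR-143, at 14 counts in the lowest animal, and the share of probe background in its counts was not tested.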
